A study of Mus musculus with 8 samples.

Results

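The genes described here are 9 components and receptors of the complement system: C1qa, C1qb and C1qc, C3, C4b, Cfp and Cfb, and the receptor genes C3ar1 and C5ar1. They were picked by gene symbol as named complement genes, 9 of the 51826 genes in the count table, and all 9 were among the 16484 genes kept by a filter on low counts. Gene expression was measured by RNA sequencing of total splenocytes, taken after lysis of red blood cells, from mice of the Balb/c strain killed at 3 months of age. From weaning, 4 mice received a low dose of all-trans-retinoic acid (tRA), the active metabolite of vitamin A, every day, and 4 control mice received the vehicle, canola oil. No mouse of either group had been given pristane. The protocol text of the labels gives 1 mg/kg of tRA for all 8 samples, including those titled as controls, and the grouping follows the titles. Total counts on genes were between 30919272 and 37539631 per control mouse (median 33879268) and between 31810417 and 35165876 per tRA mouse (median 32899174.5). In a check for repeated libraries, no 2 libraries of a group agreed within sampling noise (chi-square over genes divided by its degrees of freedom, 14.1 to 72.5).

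Complement is a cascade of plasma and membrane proteins that tags microbes, immune complexes and dying cells for removal. The C1q protein is assembled from the products of C1qa, C1qb and C1qc, binds antibody held in immune complexes and starts the classical pathway, in which C4 and C2 are cleaved and then C3, while factor B and properdin drive the alternative pathway that amplifies C3 cleavage. Small fragments of C3 and C5 signal to myeloid cells through C3ar1 and C5ar1; the liver makes most of the circulating components, tissue macrophages such as those of the spleen are a major source of C1q, and inherited lack of C1q is strongly linked to lupus.

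The comparison asks whether complement transcripts in the spleen differed between tRA and control mice before any induction of lupus. In the quasi-likelihood test of edgeR, adjusted by Benjamini-Hochberg over all genes tested, 0 of the 9 members had an FDR under 0.1, where 0% of all genes tested did. With limma-voom it was also 0 of the 9, and with DESeq2 0 of the 7 members that had an adjusted p (Cfb and C3ar1 had none), while over all genes DESeq2 called 27 and limma-voom 1. At an unadjusted p under 0.05 there were 0 of the 9, beside 6.49% of all genes tested, and for 0 of the 9 did the 4 tRA mice all lie on one side of the 4 control mice, beside 3.54% of all genes. The log2 fold change, tRA over control, was positive for 4 members and negative for 5, with a median of -0.015, the value of Cfb, beside 0.0014 over all genes tested. For the 7 members with at least 10 counts in every library, fitted with the genes that pass that filter, the median was -0.19. Over the 9 members it turned positive without control mouse 2 (0.18), without tRA mouse 2 (0.055), in limma-voom (0.0145), with scaling by library size alone (0.0138) and with the replicate number as a block (0.0030), and it was -0.25 without tRA mouse 3. The count of members at an unadjusted p under 0.05 became 1 without control mouse 3 (C4b), beside 906 of 16661 genes in that fit. Without control mouse 4 it became 2 (C1qa and C1qc), beside 1062 of 16713 genes. Without tRA mouse 3 it became 2 (Cfp and C5ar1), beside 866 of 16636 genes. With the replicate block it became 3 (C1qa, C4b and Cfp), beside 1200 of the 16484 genes. All p-values measure the spread between these mice. Levels are given as CPM, counts scaled to a common library size by the TMM method, and as RPKM, the CPM per kilobase of annotated exons, where genes are compared with each other.

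**Figure D1:**
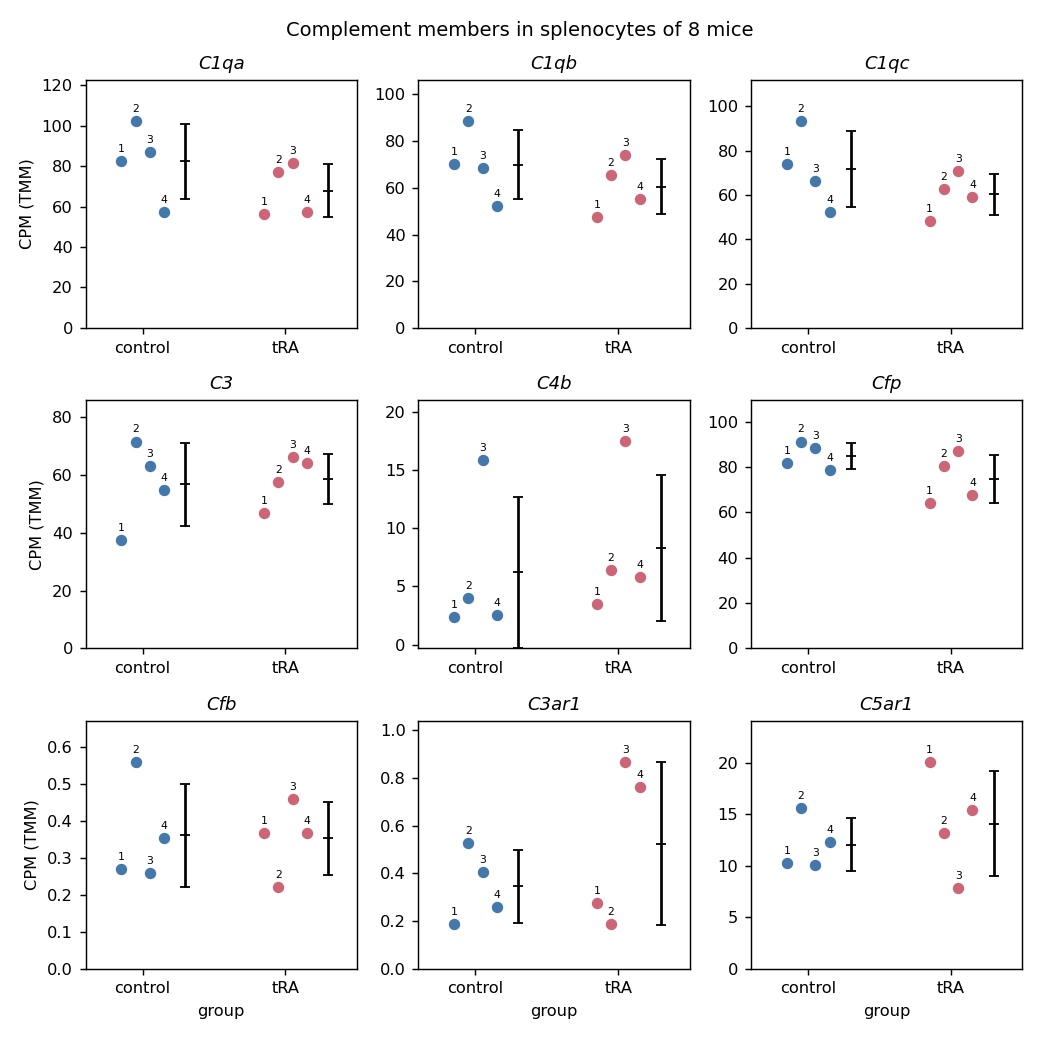
Levels of the 9 complement members in CPM (vertical axes, each from 0 or below) in 4 control and 4 tRA mice (horizontal axes). Points are mice with their replicate number, and bars are the mean and SD of each group; the groups overlap in every panel, and control mouse 3 and tRA mouse 3 stand above the rest for C4b.

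The 3 C1q genes lie side by side on the minus strand of chromosome 4 in GRCm38, within 18675 bp, in the order C1qb (136880129 to 136886187), C1qc (136889804 to 136893065) and C1qa (136895917 to 136898803). C1qa (ENSMUSG00000036887), the A chain of C1q, was measured at 82.7, 102, 87.2 and 57.4 CPM in control mice 1 to 4 and at 56.2, 77.0, 81.4 and 57.3 CPM in tRA mice 1 to 4. C1qb (ENSMUSG00000036905), the B chain, was at 70.2, 88.6, 68.6 and 52.3 CPM in the control mice and at 47.3, 65.6, 74.1 and 55.1 CPM in the tRA mice. C1qc (ENSMUSG00000036896), the C chain, was at 74.2, 93.4, 66.3 and 52.4 CPM in the control mice and at 48.5, 62.6, 70.9 and 59.1 CPM in the tRA mice. All 3 genes were highest in control mouse 2 and lowest in tRA mouse 1, and control mouse 4 lay among the lower tRA mice, so that the groups overlapped. The means of C1qa were 82.4 ± 18.7 CPM (SD, n = 4) in control mice and 68.0 ± 13.1 CPM (SD, n = 4) in tRA mice. Its log2 fold change was -0.28 (standard error 0.17, 95% interval -0.66 to 0.10), with an FDR of 0.793 by edgeR's quasi-likelihood test. For C1qb the log2 fold change was -0.21 (standard error 0.17, FDR 0.821, edgeR) and for C1qc it was -0.25 (standard error 0.16, FDR 0.793, edgeR). All 3 were smallest without control mouse 2, at -0.16 for C1qa, -0.074 for C1qb and -0.094 for C1qc, and largest without control mouse 4, at -0.42, -0.32 and -0.37. A two-sided exact permutation test over the mice gave p = 0.171 for C1qa, 0.40 for C1qb and 0.314 for C1qc, where 4 against 4 mice allow no p below 0.0286. The differences in C1q transcripts were thus within the spread between mice.

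The chains were closely tied to each other from mouse to mouse. The RPKM of C1qb over that of C1qc was between 1.65 and 1.86 in the 8 mice (median 1.75), and that of C1qa over C1qb was between 1.09 and 1.33 (median 1.22). In CPM, C1qb and C1qc were alike, at means of 65.2 and 65.9. Their RPKM ratio thus rests on the annotated exon lengths, 1088 bases for C1qb and 1931 for C1qc. On log2 CPM over the 8 mice, C1qb and C1qc had a Pearson r of 0.973 (exact permutation p = 7.44e-05, adjusted 0.00141) and a Spearman rho of 0.976 (exact permutation p = 0.000397, adjusted 0.00754). C1qa and C1qb had an r of 0.964 (exact permutation p = 0.000818, adjusted 0.0055) and a rho of 0.881 (exact permutation p = 0.00724, adjusted 0.0344). C1qa and C1qc had an r of 0.919 (exact permutation p = 0.000868, adjusted 0.0055) and a rho of 0.905 (exact permutation p = 0.00456, adjusted 0.0344). Without the 2 mice farthest from the median of the first gene, r was 0.93, 0.96 and 0.925 in the same order, and with each group centred on its own mean it was 0.97, 0.961 and 0.901. These belong to a family of 19 relations, the 3 C1q pairs and the C1q mean with each of the other 6 members and with 10 marker lists, over which the values were adjusted. In that family, 5 had an adjusted p under 0.1 for r, and the other 2 were Cfp and the red pulp macrophage markers. The next highest r was that of the marginal zone macrophage markers, at 0.658 (exact permutation p = 0.080, adjusted 0.253), and at 0.807 with each group centred.

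The red pulp macrophage markers, a list of 12 genes of the iron-recycling macrophages of the spleen, varied over the mice much as C1q did. All 12 were tested, 3 with a positive and 9 with a negative log2 fold change and a median of -0.030, and 0 had an unadjusted p under 0.05. Their summed level was 854, 1110, 804 and 707.5 CPM in control mice 1 to 4 and 604, 869, 1031 and 824 CPM in tRA mice 1 to 4. As for C1q, control mouse 2 was highest and tRA mouse 1 lowest, and the groups overlapped. The most abundant gene of the list was Csf1r, the receptor that macrophages need for survival, and none of the 12 was at 0 in all mice. The mean log2 CPM of the list and of the C1q genes had an r of 0.887 (exact permutation p = 0.00357, adjusted 0.0157) and a rho of 0.833 (exact permutation p = 0.0154, adjusted 0.0584). Without control mouse 2 and tRA mouse 1, r was 0.702, and with each group centred on its own mean it was 0.911. Relative to the list, a measure chosen after seeing the data, the C1q mean was 0.62, 0.54, 0.65 and 0.39 log2 units above the list mean in control mice 1 to 4 and 0.61, 0.43, 0.34 and 0.27 above it in tRA mice 1 to 4. These differences overlapped between the groups and averaged 0.55 ± 0.12 (SD, n = 4) in control and 0.41 ± 0.15 (SD, n = 4) in tRA mice. In bulk splenocytes, fewer macrophages and less C1q RNA per macrophage cannot be told apart, and the part of the macrophage markers in the C1q values was not tested.

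**Figure D2:**
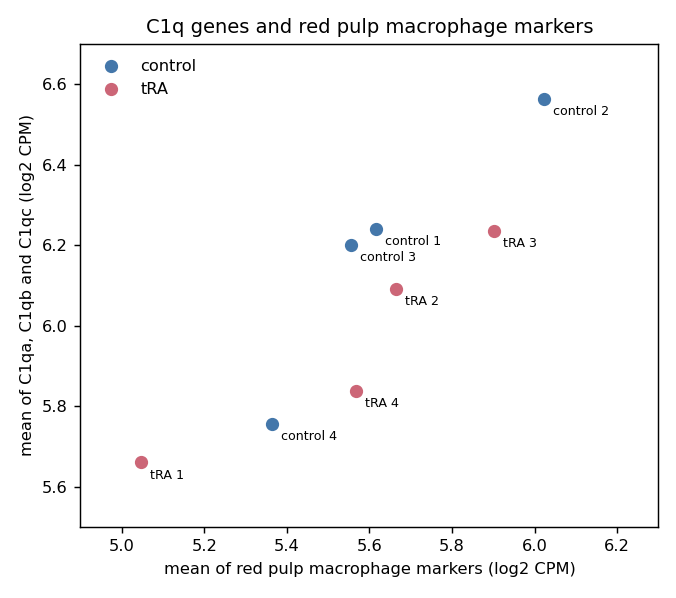
Mean log2 CPM of C1qa, C1qb and C1qc (vertical axis) against the mean log2 CPM of 12 red pulp macrophage markers (horizontal axis), 1 point per mouse, coloured by group. Control mouse 2 is at the upper right and tRA mouse 1 at the lower left (Pearson r of 0.887 over 8 mice).

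Over 13137 tested protein-coding genes other than the members, the 5 whose log2 CPM was most like the C1q mean across the 8 mice were Hmox1 (r of 0.98), Gpd1 (0.972), Hs3st2 (0.951), Ccl24 (0.946) and Gpc4 (0.942), given as a description. Hmox1 encodes heme oxygenase, which breaks down heme from red blood cells, and is itself one of the macrophage markers. Gpd1 encodes a glycerol phosphate dehydrogenase, Hs3st2 a heparan sulfate sulfotransferase, Ccl24 a chemokine for eosinophils and Gpc4 a cell surface proteoglycan. Their log2 fold changes were -0.18, -0.21, -0.20, -0.27 and -0.53 in the same order, and the lowest of their unadjusted p was 0.16 (Ccl24, edgeR).

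As C1qb and C1qc moved together, their promoters are shown, 300 bases around the annotated start from RefSeq on GRCm38.p6, read 5′ to 3′ on the minus strand. Promoters of 6 of the 9 members were matched (C1qb, C1qc, C3, Cfp, C3ar1 and C5ar1). Both strands were searched for AGGTCA, a half-site that retinoic acid receptors recognise, and GCTGAC, the core of sites of the large Maf factors of macrophages; these letters do not overlap here, were chosen after the sequences were seen, and are in capitals, on the other strand as TGACCT and GTCAGC. The C1qb promoter is at chr4:136886151-136886450 and the C1qc promoter at chr4:136892865-136893164.
C1qb: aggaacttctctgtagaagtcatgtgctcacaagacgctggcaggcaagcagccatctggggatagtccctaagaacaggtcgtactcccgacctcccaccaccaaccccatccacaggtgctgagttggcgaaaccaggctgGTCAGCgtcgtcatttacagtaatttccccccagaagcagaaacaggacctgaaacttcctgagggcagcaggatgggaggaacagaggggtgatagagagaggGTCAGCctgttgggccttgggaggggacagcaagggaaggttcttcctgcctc
C1qc: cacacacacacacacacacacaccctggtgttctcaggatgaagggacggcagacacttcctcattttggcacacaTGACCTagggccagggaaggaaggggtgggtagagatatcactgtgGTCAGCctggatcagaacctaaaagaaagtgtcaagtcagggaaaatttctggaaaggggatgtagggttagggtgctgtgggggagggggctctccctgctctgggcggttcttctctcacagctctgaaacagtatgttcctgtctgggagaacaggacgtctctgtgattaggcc
The C1qb promoter holds 2 copies of GCTGAC and 0 of AGGTCA, and the C1qc promoter holds 1 of each. Among 32851 promoters of the same length, 15.7% hold GCTGAC and 16.3% hold AGGTCA. The promoters of C3 and Cfp also hold AGGTCA, so that it occurs in 3 of the 6 members' promoters. GCTGAC occurs in 2 of the 6, those of C1qb and C1qc. A direct repeat of the half-site AGGTCA, or of its variant forms AGTTCA and also GGGTCA and also GGTTCA, with 1, 2 or 5 bases between the copies, the arrangement that retinoic acid receptor dimers bind, was in 0 of the 6 and in 0.588% of all promoters. A match is a description of letters in this window only.

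C3 encodes the central protein on which all routes of complement activation converge. C3 (ENSMUSG00000024164, chromosome 17 from 57203970 to 57228136) was at 37.5, 71.5, 62.9 and 54.8 CPM in control mice 1 to 4 and at 46.8, 57.6, 66.0 and 64.1 CPM in tRA mice 1 to 4. Control mouse 1 was lowest and control mouse 2 highest, so that the tRA mice all lay inside the range of the controls. Its log2 fold change was 0.05 (standard error 0.18, FDR 0.97, edgeR), and it was -0.10 without control mouse 1 and -0.014 without tRA mouse 3. Cfp (ENSMUSG00000001128, chromosome X from 20925454 to 20931555) encodes properdin, which stabilises the alternative C3 convertase. It was at 81.5, 91.2, 88.3 and 78.8 CPM in the control mice and at 64.2, 80.4, 86.9 and 67.8 CPM in the tRA mice. The lowest levels were those of tRA mice 1 and 4, while tRA mice 2 and 3 lay within the control range. The means were 85.0 ± 5.77 and 74.8 ± 10.6 CPM (SD, n = 4 each), a log2 fold change of -0.18 (standard error 0.10, 95% interval -0.40 to 0.036, FDR 0.78, edgeR; exact permutation p = 0.171), which became -0.12 without tRA mouse 1 and -0.26 without tRA mouse 3. Cfp varied with the C1q mean over the 8 mice, with an r of 0.863 (exact permutation p = 0.00414, adjusted 0.0157) and a rho of 0.881 (exact permutation p = 0.00724, adjusted 0.0344), and r was 0.832 without tRA mice 1 and 4 and 0.838 with each group centred. For C3 and the C1q mean, r was 0.324 (exact permutation p = 0.436, adjusted 0.638), rho was 0.429 (exact permutation p = 0.299, adjusted 0.517), and r was 0.784 without control mouse 1 and tRA mouse 1.

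C4b and Cfb lie in the same stretch of chromosome 17 as C4a and C2, in the order C4b, C4a, Cfb and C2 from 34728380 to 34898265. C4b (ENSMUSG00000073418, 34728380 to 34743882) encodes the C4 that the classical and lectin pathways cleave. It was at 2.38, 4.01, 15.9 and 2.58 CPM in control mice 1 to 4 and at 3.51, 6.39, 17.5 and 5.78 CPM in tRA mice 1 to 4. Control mouse 3 and tRA mouse 3 were far above all others, by a factor of 7.34 between the highest and the lowest of the 8 mice. For C4b the log2 fold change was 0.42 (standard error 0.64, 95% interval -0.98 to 1.82, FDR 0.904, edgeR), and either mouse set its direction or size, with -0.25 without tRA mouse 3 and 1.47 without control mouse 3 (FDR 0.979 and 0.887, and between 0.647 and 0.999 over the alternatives run on all genes). With both left out, a choice made after seeing the data, it was 0.81 (unadjusted p = 0.0163, FDR 0.978, edgeR), and with the replicate block 0.61 (unadjusted p = 0.0081, FDR 0.647). The paralog C4a did not share the high levels, at 2.98, 4.45, 3.32 and 2.62 CPM in the control mice and 2.96, 4.13, 3.99 and 3.88 CPM in the tRA mice, although reads of these near-identical genes can be split between them, so that both levels are uncertain.

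By mean log2 CPM the same mice led for markers of stroma and follicular dendritic cells, a list of 6 genes of which 5 were tested. The mean was 1.14, 1.34, 1.97 and 1.27 log2 CPM in control mice 1 to 4 and 0.925, 1.34, 2.12 and 0.915 in tRA mice 1 to 4. Single genes led in both mice only for Cxcl13 (13 to 109 counts per mouse) and Col3a1 (3 to 38 counts per mouse). For Col1a1, control mouse 3 was at 0.578 CPM, below control mice 2 and 4 (0.591 and 0.646 CPM). For Pdgfrb, tRA mouse 3 was at 2.20 CPM, below tRA mouse 2 (2.65 CPM). The summed level of the list was 244, 249, 248 and 237 CPM in the control mice and 240.0, 246, 251 and 242 CPM in the tRA mice, and came mostly from its most abundant gene, Pecam1, an adhesion molecule of endothelium, for which control mouse 3 was below control mice 1 and 2. In the list, 3 genes had a positive and 2 a negative log2 fold change, 0 had an unadjusted p under 0.05, the median was 0.0017 and no gene was at 0 in all mice. Erythroid markers, 5 of 5 tested, 4 positive and 1 negative with a median of 0.43, summed to 726, 1405, 2168 and 452 CPM in the control mice and 2102, 569, 3261 and 538 CPM in the tRA mice, with Hbb-bs, a beta globin, the most abundant. Control mouse 3 and tRA mouse 3 were thus also the highest of their groups for the sum of the erythroid markers. For Klf1 of that list, control mouse 2 (6.82 CPM) was above control mouse 3 (4.36 CPM). The part of either list in the C4b values was not tested.

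Cfb (ENSMUSG00000090231, 34856374 to 34862518), the protease precursor factor B of the alternative pathway, was close to the filter with 7 to 18 counts per mouse. Its levels were 0.271, 0.56, 0.26 and 0.356 CPM in control mice 1 to 4 and 0.366, 0.22, 0.461 and 0.367 CPM in tRA mice 1 to 4. Control mouse 2 was highest, tRA mouse 2 lowest, and the rest were mixed. Cfb had a log2 fold change of -0.015 (standard error 0.37, 95% interval -0.83 to 0.80, FDR 0.995, edgeR), and its sign turned in limma-voom (0.0145), with scaling by library size alone (0.0138) and without control mouse 2 (0.27) or tRA mouse 2 (0.15). The gene overlaps the readthrough gene Gm20547 on the same strand, which also covers C2, so that its counts are uncertain. Differences inside this interval were not detectable in this comparison of 4 against 4 mice.

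The receptors for the small C3 and C5 fragments differed in level. C3ar1 (ENSMUSG00000040552, chromosome 6 from 122847138 to 122856161), the C3a receptor, had 6 to 32 counts per mouse. It was at 0.189, 0.529, 0.405 and 0.259 CPM in control mice 1 to 4 and at 0.275, 0.189, 0.868 and 0.764 CPM in tRA mice 1 to 4. The 2 highest were tRA mice 3 and 4, tRA mouse 1 lay within the control range, and tRA mouse 2 was level with the lowest control. C3ar1 had a log2 fold change of 0.62 (standard error 0.52, 95% interval -0.52 to 1.75, FDR 0.834, edgeR; exact permutation p = 0.457), and with each mouse left out in turn it ranged from 0.25 (without tRA mouse 3) to 0.89 (without control mouse 2). Among monocyte markers, 9 of 9 tested, 5 positive and 4 negative with a median of 0.16, 2 had a positive change at an unadjusted p under 0.05 (beside 6.49% of all genes tested in either direction). Their summed level was 1556, 1504, 1521 and 1555 CPM in the control mice and 2159, 1456, 789.7 and 865 CPM in the tRA mice, and it followed Nr4a1, its most abundant gene, an immediate early gene that lymphocytes also express. Nr4a1 was at 1150, 952, 956 and 1046 CPM in the control mice and at 1680, 946, 159 and 233 CPM in the tRA mice. Unlike this sum, Spn and Ms4a6c, the 2 genes with a positive change at that p, were highest in tRA mice 3 and 4, as C3ar1 was. Spn was at 345 and 308 CPM there and at no more than 270 CPM in the other mice. Ms4a6c was at 38.6 and 41.1 CPM there, but tRA mouse 2 was nearly level at 38.5 CPM, and the rest were at no more than 33.1 CPM. For no other gene of the list were these 2 mice both the highest. The part of monocytes in the C3ar1 values was not tested.

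C5ar1 (ENSMUSG00000049130, chromosome 7 from 16246743 to 16259540) encodes the C5a receptor, which draws and activates neutrophils and monocytes, and lies next to C5ar2. It was at 10.3, 15.6, 10.1 and 12.3 CPM in control mice 1 to 4 and at 20.1, 13.2, 7.81 and 15.4 CPM in tRA mice 1 to 4. The highest and the lowest mouse, tRA mice 1 and 3, were both in the tRA group, on either side of all controls. C5ar1 had a log2 fold change of 0.23 (standard error 0.25, 95% interval -0.32 to 0.77, FDR 0.871, edgeR; exact permutation p = 0.657), and it was 0.43 without tRA mouse 3 and 0.0067 without tRA mouse 1. The mature neutrophil markers, 7 of 7 tested, 2 positive and 5 negative with 3 of the latter at an unadjusted p under 0.05 (beside 6.49% of all genes tested in either direction) and a median of -0.41, summed to 549, 912, 718 and 699 CPM in the control mice and 644, 589, 467 and 831 CPM in the tRA mice. Their most abundant gene was Csf3r, the receptor for G-CSF, and none was at 0 in all mice. tRA mouse 3 was lowest for the sum of these markers and for C5ar1, while tRA mouse 1, highest for C5ar1, lay inside the range of the other sums. Single markers differed from the sum. The 2 with a positive log2 fold change, Csf3r (0.25) and Cxcr2 (0.39), were lowest in control mouse 1, at 150 and 23.9 CPM. Ly6g was lowest in tRA mouse 2, at 2.83 CPM. The part of neutrophils in the C5ar1 values was not tested.

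Per length of annotated exons, the members fell into an order from C1qa, at a mean of 72.3 ± 16.2 RPKM (SD over 8 mice), through C1qb at 59.9 ± 12.3, Cfp at 46.0 ± 5.53, C1qc at 34.1 ± 7.30, C3 at 11.2 ± 2.16, C5ar1 at 5.09 ± 1.52 and C4b at 1.27 ± 1.05 to Cfb at 0.127 ± 0.040 and C3ar1 at 0.101 ± 0.061. Each of the first 5 lay above the next in 8 of 8 mice, although among these neighbours only C1qc and C3 had ranges over the mice that did not overlap. The place of C1qc below C1qb rests on its longer annotated exons, as the 2 genes were alike in CPM. C5ar1 lay above C4b in 7 of 8 mice, C4b above Cfb in 8 of 8 with ranges apart, and the ranges of C1qa and C1qb, C1qb and Cfp, Cfp and C1qc, C3 and C5ar1, and C5ar1 and C4b overlapped. Cfb and C3ar1, with Cfb higher in 5 of 8, did not differ beyond their spread. Over the 8 mice the coefficient of variation of RPKM was lowest for Cfp (12.0%) and highest for C4b (82.7%), with the C1q genes between 20.5% and 22.4%.

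Beyond the members, lists of complement genes by role held 42 other genes, of which 25 were tested and 17 had too few counts. By edgeR, 0 of the 25 had an FDR under 0.1, and 2 had an unadjusted p under 0.05, 1 in each direction, Cd55 and Fcnb. The share was 8%, beside 6.49% of all genes tested, and for these same 2 genes the groups did not overlap, beside 3.54% of all genes. The count over all 34 complement genes tested was 2 at an unadjusted p under 0.05, beside 1070 of 16484 genes. Without control mouse 2 it was 4, beside 1135 of 16735 genes, and without control mouse 4 also 4, beside 1062 of 16713. Without tRA mouse 2 it was 1, beside 762 of 16760, and without tRA mouse 3 it was 6, beside 866 of 16636. With the replicate block it was 6, beside 1200 of 16484. DESeq2 gave 2, beside 1247 of 29817 genes, and limma-voom gave 3, beside 1113 of 16484. The median log2 fold change of the 25 was 0.05, with 14 positive and 11 negative. Counts were 0 in all 8 libraries for Mbl1 and Mbl2, the mannose-binding lectins made by the liver, for the collectin Colec10, and for C8b and C9 of the membrane attack complex, and a count of 0 allows up to 0.097 CPM in the smallest library (counting error only). Hepatocyte markers, 0 of 5 tested, summed to at most 1.92 CPM (tRA mouse 1) and were led by Alb.

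Among the classical and lectin initiators, 8 of 16 were tested, 2 with a positive and 6 with a negative log2 fold change, and the median was -0.23. After the C1q genes the next in CPM was Fcna, ficolin A, a lectin of macrophages chosen here after its values were known, at 66.9, 75.0, 65.2 and 52.7 CPM in control mice 1 to 4 and 48.6, 68.9, 78.7 and 55.7 CPM in tRA mice 1 to 4. Its log2 fold change was -0.045 (FDR 0.969, edgeR), and like the C1q genes it was lowest in tRA mouse 1. Unlike them, it was highest in tRA mouse 3 and not in control mouse 2. Fcnb (ENSMUSG00000026835, chromosome 2 from 28076378 to 28084885), ficolin B, a lectin that starts the lectin pathway and is made by granulocyte precursors, was at 3.06, 3.95, 3.50 and 3.56 CPM in the control mice and at 1.01, 2.05, 2.09 and 2.57 CPM in the tRA mice. Every tRA mouse was below every control mouse. Fcnb had a log2 fold change of -0.86 (standard error 0.25, 95% interval -1.41 to -0.32), with an FDR of 0.757 by edgeR and a two-sided exact permutation p of 0.0286, the smallest that 4 against 4 mice can give. It ranged from -0.65 without tRA mouse 1 to -1.03 without tRA mouse 4, and its FDR was between 0.14 (DESeq2) and 0.999 over the alternatives.

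The neutrophil precursor markers, genes of granule proteins made early in neutrophil development, had negative log2 fold changes, as Fcnb had. Of these 9 genes, 9 were tested and 9 had a negative log2 fold change with a median of -0.88, 8 had an unadjusted p under 0.05 (beside 6.49% of all genes tested) and for 6 the groups did not overlap (beside 3.54%), while 0 had an FDR under 0.1 (lowest 0.135, Camp, edgeR). This list, like the other marker lists, was chosen with earlier results of these data known, so that its counts are a description and no test of the list. Without tRA mouse 4, edgeR called 3 of all genes at an FDR under 0.1 in place of 0. With all 8 mice DESeq2 called 27 of all genes, and its calls within this list are not reported here. The precursor markers summed to 553, 699, 738 and 633 CPM in control mice 1 to 4 and to 252, 315, 345 and 492 CPM in tRA mice 1 to 4, with Ngp, a granule protein, the most abundant and none at 0 in all mice. tRA mouse 1 was lowest and tRA mouse 4 the highest of the tRA mice for both the sum and Fcnb, and the part of precursor cells in the Fcnb values was not tested.

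Of the C3 and C4 family and the alternative pathway, 6 of 7 genes were tested, 3 positive and 3 negative with a median of 0.017, and 0 had an unadjusted p under 0.05. Of the terminal pathway, whose products form the pore of the membrane attack complex, 3 of 7 were tested, 2 positive and 1 negative with a median of 0.15. C6 was at 12.6 ± 2.18 CPM (SD, n = 4) in control and 12.2 ± 2.35 CPM (SD, n = 4) in tRA mice, and C8g and C8a were at means of 6.06 and 0.413 CPM in control and 6.71 and 0.487 CPM in tRA mice. The annotations of C8g, C8a and Fcna overlap Fbxw5, Gm17662 and Fcnaos on the other strand, and as the use of strand in counting was not stated these levels are uncertain.

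Of the complement regulators, which protect host cells, 8 of 12 were tested, 5 positive and 3 negative with a median of 0.17. Cd55 (ENSMUSG00000026399, chromosome 1 from 130439027 to 130462744), decay-accelerating factor, which takes C3 convertases apart on the cell surface, was at 493, 509, 503 and 378 CPM in control mice 1 to 4 and at 617, 639, 543 and 520.3 CPM in tRA mice 1 to 4. Every tRA mouse was above every control mouse, and control mouse 4 was well below the other controls. Cd55 had a log2 fold change of 0.30 (standard error 0.11, 95% interval 0.060 to 0.54), with an FDR of 0.757 by edgeR and a two-sided exact permutation p of 0.0286, the smallest possible. It was 0.21 without control mouse 4 (FDR 0.759, and between 0.385 and 0.999 over the alternatives). Cd55 lies beside its paralog Cd55b, which was at 0.531 CPM in control and 0.837 CPM in tRA mice on average, and overlaps Gm16083 on the other strand, so that its counts are uncertain. Cr1l, which encodes the mouse regulator Crry, was the steadiest of the named regulators at 96.8 ± 3.60 CPM (SD, n = 4) in control and 99.1 ± 2.44 CPM (SD, n = 4) in tRA mice, a log2 fold change of 0.035 (95% interval -0.091 to 0.16).

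All 9 complement receptor genes were tested, 6 with a positive and 3 with a negative log2 fold change and a median of 0.10, and 0 had an unadjusted p under 0.05. Cr2, which in mice encodes both complement receptors of B cells and follicular dendritic cells for C3 fragments, was at 712, 736, 621 and 765 CPM in control mice 1 to 4 and at 608, 733, 674 and 775 CPM in tRA mice 1 to 4. The groups covered nearly the same range, and the log2 fold change was -0.023 (95% interval -0.23 to 0.19, FDR 0.976, edgeR). The beta chain Itgb2 and the alpha chain Itgax of the integrin receptors were at 464 ± 37.0 and 87.7 ± 17.8 CPM (SD, n = 4) in control mice and at 497 ± 26.7 and 83.4 ± 10.8 CPM (SD, n = 4) in tRA mice.

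**Figure D3:**
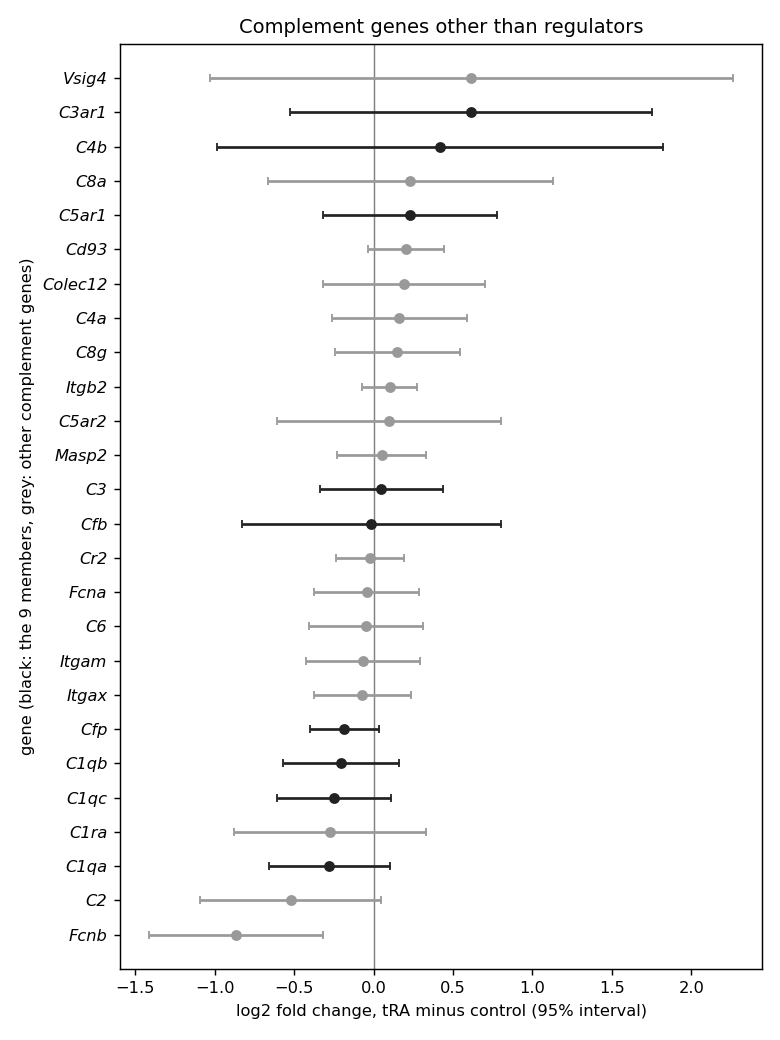
Log2 fold change, tRA minus control, with its 95% interval (horizontal axis) for the complement genes tested (vertical axis, regulators not shown), 4 mice per group. Intervals of the 9 members (black) all include 0, and among the other genes shown (grey) only that of Fcnb does not; among the regulators, that of Cd55 does not either (0.060 to 0.54).

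The lymphocyte and dendritic cell markers of the spleen were present in every mouse. The B cell markers, 6 of 6 tested, 4 positive and 2 negative with a median of 0.025, summed to between 4938 and 6149 CPM per mouse and were led by Cd79a of the B cell receptor. The T cell markers, 6 of 6 tested, 5 positive and 1 negative with a median of 0.12, were led by Trac, the T cell receptor alpha constant gene. The conventional dendritic cell markers, 6 of 6 tested, 2 positive and 4 negative with a median of -0.11, were led by Flt3, and the marginal zone macrophage markers, 4 of 4 tested, 3 positive and 1 negative with a median of 0.18, by Siglec1. None of these 4 lists had a gene with an unadjusted p under 0.05 (edgeR).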

How the data were processed

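RNA of total splenocytes of 4 tRA and 4 control mice was sequenced. Per the paper, the authors used ea-utils with Btrim for trimming, Bowtie2/Tophat2 for alignment and HTSeq to count reads per gene; the submitters' processing notes instead list STAR 2.5.2b, featureCounts 1.5.1, DESeq2 1.26.0 and GRCm38. The authors deposited raw counts per gene, which were used. They also deposited a DESeq2 comparison with fold changes and p-values, which was not used here.

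Of 51826 gene identifiers, 51633 had an entry in GENCODE M21, which is not stated to be the authors' release, and 193 had none. Members were matched by symbol. In R 4.3.3, edgeR 4.0.16 filtered genes (filterByExpr, minimum 10 counts), normalized by TMM and fitted the quasi-likelihood test to all 16484 genes; calls were at an FDR under 0.1. Standard errors and intervals were derived from its F statistic. Log2 CPM used a prior count of 2. Python 3.11.15 with scipy 1.17.1 and matplotlib 3.10.9 gave correlations, with two-sided exact permutation tests over all pairings, and figures. Alternatives were DESeq2 1.42.0, limma-voom (limma 3.58.1), RLE, library size alone, 2 other filters, the replicate number as a block, an FDR under 0.05, another prior count, group-centred correlations, and each mouse left out in turn. The fits were tested on simulated data, and the outcome is not reported here.

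The members, 5 lists of complement genes by role and 11 lists of cell markers were chosen with earlier results of these data known. The text names all members, the 3 genes of each role with the highest mean CPM (1 is not reported here), every complement gene with an unadjusted p under 0.05, the most abundant gene and the genes at 0 of each marker list, and the 5 protein-coding genes most like the C1q mean.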

Additional observations from a re-analysis of the deposited data

Results flagged for a closer look

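A mouse lay far from the other 3 of its group for 3 of the 34 complement genes tested, when its gap to the nearest other mouse is divided by the range of the group (Dixon's ratio, above its 95% critical value for groups of 4). Chance flags about 1 in 20 groups, or 3.4 of the 68 groups examined, so 3 is no more than chance gives. C4b was high in control mouse 3, at 15.9 CPM against 2.38, 2.58 and 4.01 in the other controls, with a ratio of 0.879. Cd55 was low in control mouse 4, at 378 CPM against 493, 503 and 509, with a ratio of 0.875. Cd93, once described as a C1q receptor, was low in the same mouse, at 12.9 CPM against 17.1, 17.2 and 17.8, with a ratio of 0.85.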

How the results depend on the processing

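Over 15 alternatives, 133 fits of the 9 members gave 0 with an FDR under 0.1, though 2 of them, Cfb and C3ar1 in DESeq2, had no FDR and could not pass. Of the 133, 125 kept the sign of the log2 fold change. The other 8 turned it: Cfb was 0.0145 with limma-voom, 0.0138 with library size alone and 0.0030 with the replicate block, and with each mouse left out in turn it ranged from -0.17 to 0.27, C3 from -0.10 to 0.18 and C4b from -0.25 to 1.47. C1qa ranged from -0.42 to -0.16, and Cfb and C3ar1 were not in the fit with at least 10 counts in every library. Over all genes, 0 calls became 27 with DESeq2, 1 with limma-voom, 6 without a filter on low counts and 0 to 3 with a mouse left out, and the 1070 genes at an unadjusted p under 0.05 became 657 without tRA mouse 4 and 2105 without tRA mouse 1, the lowest and highest with a mouse left out. Members at an unadjusted p under 0.05 numbered 0 to 2 with a mouse left out, and complement genes 1 to 6 in place of 2. With the replicate block, 3 members (C1qa, C4b and Cfp) and 6 complement genes had an unadjusted p under 0.05, beside 1200 of all 16484 genes, and 0 genes were called. In the labels, same-numbered mice are tied by the number alone. Their deviations from the group means had correlations of 0.157, -0.0229, -0.014 and 0.259, not all of one sign, which do not establish a pairing. Of the 5 correlations called, all 5 kept their direction and their call with group-centred values, where 6 of the 19 were called, and with a prior count of 0.5. The cause of these changes was not tested.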
